A study of Mus musculus with 24 samples.

Results

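The segment of mouse chromosome 15 that runs from 20 kb to 2 Mb upstream of the Myc start was examined for contacts with the Myc promoter. In the mm10 build the Myc start lies at 61985341 on chromosome 15 and the segment covers chr15:59985341-61965341. Its members were all restriction fragments of the deposited Myc contact profiles with a midpoint in this interval. There were 1461 such fragments, out of 11106 fragments listed anywhere in the genome in at least 1 of the profiles. The wild-type profile listed 796 of them and the Ebf1-KO profile 975.

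The series held 24 mouse samples, all on the C57BL6/J background, from work on the control of Myc by the transcription factors EBF1 and PAX5. Chromatin contacts came from H3K4me3 PLAC-seq, which ligates DNA ends that lie close together and enriches for fragments with this promoter mark. Cultured fetal liver cells gave 3 such samples without a mutation and 4 from Ebf1-KO fetuses, and each genotype was deposited as 1 pooled profile. RNA was sequenced from fetal liver cells that were wild type, Ebf1-KO or Pax5-KO. These were grown on OP9 stromal cells with KIT ligand, FMS-like tyrosine kinase 3 ligand and interleukin 7. All RNA cultures carried the retroviral vector pMiG. In wild-type cells it was empty, and in each mutant it was empty, encoded Ebf1 or encoded Pax5, which gives 7 groups of 2 libraries. Binding of EBF1 was measured in 230-238, a murine pre-B cell line, from 2 immunoprecipitated samples and 1 input. It is 1 line and not the cells of the contact profiles.

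The MYC protein is a transcription factor that promotes cell growth, and in early B cells its level follows signals such as interleukin 7. The gene sits in a long stretch of chromosome with few protein-coding genes, and enhancers that act on it in other tissues are known far away on both sides. An enhancer works on a distant promoter through contact in the folded chromosome, and such contacts grow rarer with distance unless folding brings the sites together. EBF1 is a DNA-binding factor that commits progenitors to the B lineage, and PAX5 acts after it to hold that commitment.

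The segment is poor in genes. RefSeq annotation of the same build places 20 genes in it, of which 3 code for proteins, 6 are long non-coding RNAs, 8 are pseudogenes, 1 is a small nuclear RNA and 2 are small nucleolar RNAs. The protein-coding genes are Lratd2, listed in the count table under its older name Fam84b, A1bg and 4933412E24Rik. RefSeq promoter sequences, from 250 bases before to 50 bases after a start, were at hand for 7 of the 20 genes, as 9 promoters. A pair is shown, chosen after their contacts with Myc were seen. Gm38563, a long non-coding RNA gene, starts 828.2 kb from Myc at the densest contact site beyond 100 kb in the Ebf1-KO profile, and D030024E09Rik, the annotated long non-coding RNA gene nearest to Myc in the segment, had no local excess. Both are given 5′ to 3′ along the gene from GRCm38.p6, Gm38563 on the plus strand at chr15:61156907-61157206 and D030024E09Rik on the minus strand at chr15:61774402-61774701.

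Gm38563: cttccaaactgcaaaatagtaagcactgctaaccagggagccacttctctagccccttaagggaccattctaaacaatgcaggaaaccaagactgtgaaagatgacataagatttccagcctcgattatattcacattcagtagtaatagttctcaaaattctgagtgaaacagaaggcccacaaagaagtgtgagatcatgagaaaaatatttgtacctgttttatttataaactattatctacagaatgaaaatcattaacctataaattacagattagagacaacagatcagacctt

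D030024E09Rik: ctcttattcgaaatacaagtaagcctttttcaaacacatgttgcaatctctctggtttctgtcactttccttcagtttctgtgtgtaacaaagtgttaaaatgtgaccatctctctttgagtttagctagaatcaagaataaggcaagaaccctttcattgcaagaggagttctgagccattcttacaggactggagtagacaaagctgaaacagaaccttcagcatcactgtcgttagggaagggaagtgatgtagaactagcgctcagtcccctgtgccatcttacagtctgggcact

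The core of the EBF1 recognition site was searched as CCCNNGGG, which reads the same on both strands and would be in capitals above. None of the 9 promoters held it, which are too few to show a lack of the site. Promoters of Lratd2 and 9930014A18Rik, the genes that overlap an EBF1 peak, were not among them. Peak sequences were not searched. Of 32851 RefSeq mouse promoters of the same length of 300 bases, 13.7% did.

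Depth differed between the profiles. Wild type had 9143 listed contacts and Ebf1-KO 17349, of which 996 and 1601 were with other chromosomes. Each genotype has 1 profile, so no difference between genotypes has a replicate check and no p-value is given. The 95% intervals below are exact binomial for shares and exact conditional for ratios. They cover counting error only, and contacts read from PCR products need not be independent molecules. Ratios per contact with other chromosomes take those 996 and 1601 contacts as exact, so the intervals of these ratios are too narrow. Early B genes checked the labels: the CPM (read counts scaled to a common library size with TMM factors) summed over 9 markers was 6935 to 7527 in the wild-type RNA and 98.0 to 113 in the Ebf1-KO RNA with empty vector. Ebf1-KO cells thus had far less of the pro-B programme than their wild-type counterparts.

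Upstream contacts took a smaller share in Ebf1-KO cells. The wild-type profile had 1030 contacts upstream and 5308 in the mirror segment downstream, which holds the Pvt1 gene. The Ebf1-KO profile had 1360 upstream and 11286 downstream. Upstream contacts were therefore 16.3% of the contacts on both sides in wild type (interval 15.4 to 17.2%) and 10.8% in Ebf1-KO (10.2 to 11.3%). The ratio of the shares was 0.662 (0.610 to 0.718). The choice of denominator set the size of the difference. Per contact with another chromosome, upstream contacts were 1.03 in wild type and 0.849 in Ebf1-KO, a ratio of 0.821 (0.757 to 0.892), while downstream contacts went from 5.33 to 7.05, a ratio of 1.32 (1.28 to 1.37). Counting listed fragments in place of contacts gave an upstream ratio of 0.957 (0.871 to 1.05), an interval that includes 1. The deeper Ebf1-KO profile had 3.54 contacts per listed fragment downstream against 2.16 in wild type, and 1.39 against 1.29 upstream.

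Single fragments were thinly covered. A lone contact was all that was seen for 76.9% of the upstream fragments in wild type and for 74.2% in Ebf1-KO, and the highest counts were 5 and 11. The profiles shared 310 upstream fragments, which were 38.9% of the wild-type list and 31.8% of the Ebf1-KO list. At the near limit the last fragment inside, centred 20.017 kb from Myc, had 3 wild-type and 4 Ebf1-KO contacts, and the first fragment outside, at 19.181 kb, had 6 and 13. At the far limit, fragments on both sides of the line had 1 contact each. In wild type 9 upstream fragments had 4 or 5 contacts, all within 20.9 to 54.7 kb of Myc, and 31 more had 3. In Ebf1-KO 6 fragments had 6 to 11 contacts, and 7 more had 5. Of the 10 taken there, with ties going to the fragment nearer to Myc, 9 lay within 100 kb. The exception, at chr15:60824347-60824743, lies in Lratd2 1161 kb away, with 6 contacts in Ebf1-KO and 1 in wild type. It was picked for its count in the deeper Ebf1-KO profile, so these counts do not measure a difference between genotypes. Within 5 kb of the EBF1 peak at Lratd2 the counts were 22 in Ebf1-KO and 12 in wild type, a ratio of shares of 0.919 (0.435 to 2.04).

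The difference was uneven along the segment, which is given here in 3 stretches whose limits were chosen after the bins were seen. From 20 to 100 kb, wild type had 167 contacts and Ebf1-KO 263, and the share of the contacts on both sides was 2.63% and 2.08%, a ratio of 0.789 (0.648 to 0.964). This was the bin with most upstream contacts in both genotypes. From 100 to 800 kb, wild type had 582 contacts and Ebf1-KO, although deeper, 558. The share was 9.18% (8.48 to 9.92%) against 4.41% (4.06 to 4.78%), a ratio of 0.481 (0.427 to 0.541). From 800 to 2000 kb the counts were 281 and 539, the shares 4.43% and 4.26%, and the ratio 0.961 (0.831 to 1.11). The lower upstream share of Ebf1-KO thus lay mostly between 100 and 800 kb. Per contact with other chromosomes the ratios of the stretches were 0.980 (0.804 to 1.20), 0.596 (0.530 to 0.671) and 1.19 (1.03 to 1.38). The median distance of an upstream contact was 511 kb in wild type, with quartiles of 204 and 823 kb, and 586 kb in Ebf1-KO, with quartiles of 164 and 981 kb.

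**Figure D1:**
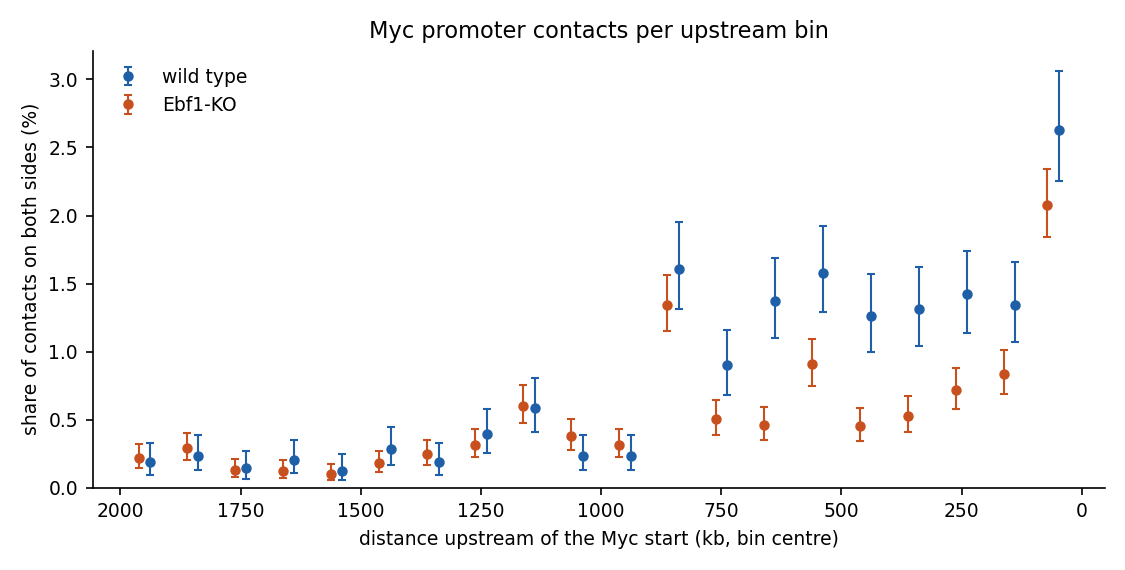
Share of Myc contacts (% of contacts from 20 kb to 2 Mb on both sides) in each 100 kb bin upstream of the Myc start, the nearest bin being 20 to 100 kb, in the wild-type and Ebf1-KO profiles. Points are shares and bars 95% exact binomial intervals; wild type lies above Ebf1-KO in each of the 7 bins from 100 to 800 kb.

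The limits of the stretches came from bins of 100 kb, which are given here for their sizes. Over both sides of Myc, 25.0% of 40 bins had a share lower by over 1.5-fold in Ebf1-KO and 2.50% a share higher by that much. Upstream, 9 of 20 bins were lower and 1 higher, against 1 lower and 0 higher of 20 downstream. The 7 bins from 100 to 800 kb were all among the 9, with ratios from 0.334 to 0.625 and intervals that excluded 1. The mirror bins downstream had ratios from 1.03 to 1.47. The lowest upstream ratio belonged to 600 to 700 kb, where wild type had 87 contacts and Ebf1-KO 58, a ratio of 0.334 (0.235 to 0.471). The next belonged to 400 to 500 kb, with 80 and 57 contacts and a ratio of 0.357 (0.250 to 0.508). These and the bin at 300 to 400 kb, with 83 and 67 contacts, held fewer contacts in the deeper Ebf1-KO profile. The other lower bins were thin, with 18 and 23 contacts at 1400 to 1500 kb and 13 and 16 at 1600 to 1700 kb, and their intervals included 1. So did the interval of the higher bin, 1000 to 1100 kb, with 15 and 48 contacts and a ratio of 1.60 (0.883 to 3.08). Per contact with other chromosomes this bin had a ratio of 1.99 (1.10 to 3.83), and as a share of upstream contacts 2.42 (1.33 to 4.66). Each of its ratios was the highest among the 20 upstream bins, and the intervals do not allow for picking the highest. Shares of upstream contacts are parts of 1 total, so the fall from 100 to 800 kb raises the shares of other bins. With contacts on other chromosomes as the denominator, 4 upstream bins were lower and 4 higher by over 1.5-fold. Within 100 to 800 kb the ratios were then 0.415 to 0.776 and 5 of the 7 intervals excluded 1.

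**Figure D2:**
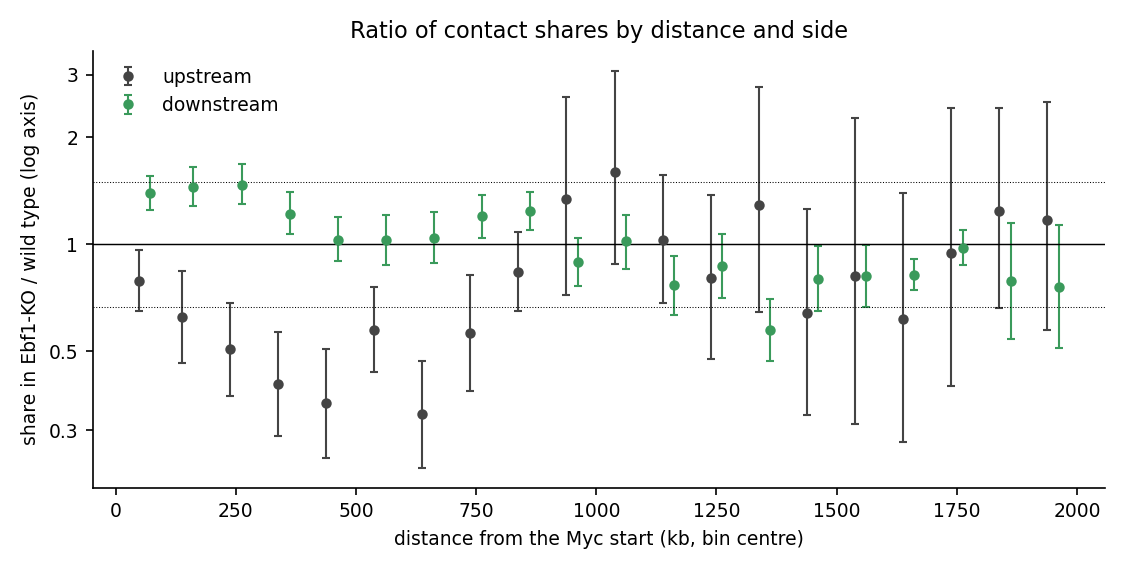
Ratio of the Ebf1-KO to the wild-type contact share (log axis) in bins of 100 kb by distance from the Myc start, upstream and downstream, with 95% intervals as bars and dotted lines at the 1.5-fold limits. The upstream bins from 100 to 800 kb lie between 0.334 and 0.625 and the downstream bins of the same distances between 1.03 and 1.47.

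**Figure D3:**
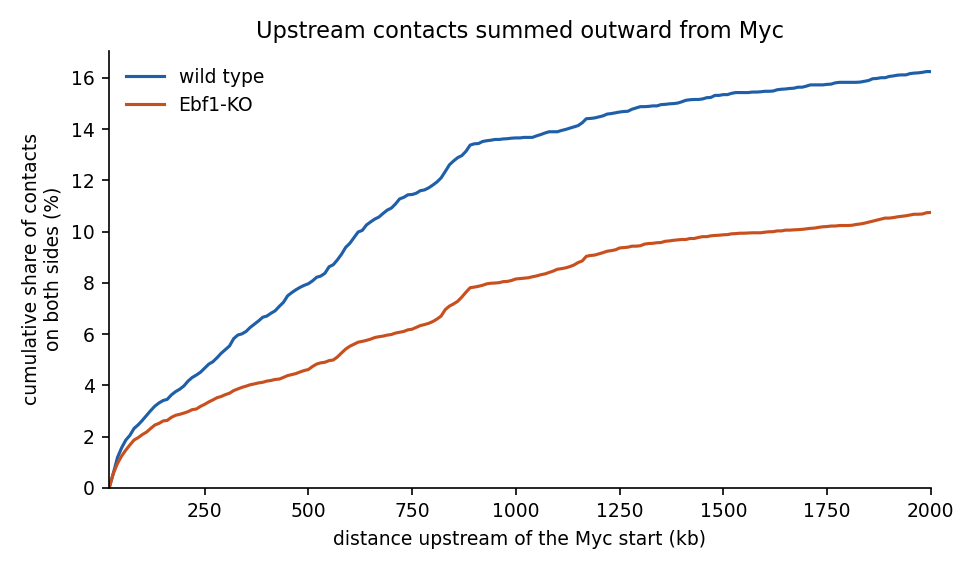
Upstream contacts summed outward from 20 kb, as a percentage of the contacts on both sides, against distance (kb), with 1 line per genotype. The lines part mostly between 100 and 800 kb and end at 16.3% in wild type and 10.8% in Ebf1-KO.

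Beyond 100 kb, the Ebf1-KO contacts were densest 800 to 900 kb away, and contacts dropped past that bin in both genotypes. It held 102 contacts in wild type, close to the 100 at 500 to 600 kb, and 170 in Ebf1-KO, with a ratio of shares of 0.835 (0.650 to 1.08). The next bin out, 900 to 1000 kb, held 15 and 40. The drop from one bin to the next was 6.80-fold in wild type (3.94 to 12.6) and 4.25-fold in Ebf1-KO (3.00 to 6.16). In steps of 10 kb beyond 100 kb, looked at after the values were seen, the step from 820 to 830 kb led the Ebf1-KO profile with 32 contacts and had 16 in wild type. It contains the start of Gm38563, a site singled out for this count, so its excess over the flanks describes the choice. Within 5 kb of that start wild type had 19 contacts, 2.22 times the density of the flanks out to 50 kb (1.27 to 3.71), and Ebf1-KO had 32, 2.34 times the flanks (1.54 to 3.48). The ratio between the genotypes' values against the flanks was 1.05 (0.536 to 2.12). At the D030024E09Rik start both profiles had 7 contacts, 0.808 times the flanks in wild type (0.314 to 1.74) and 0.759 times in Ebf1-KO (0.296 to 1.63). In wild type the leading step beyond 100 kb lay elsewhere, at 310 to 320 kb, with 18 contacts against 13 in Ebf1-KO, and no RefSeq gene starts there.

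EBF1 peaks were few on this side. The list from 230-238 cells held 17230 peaks, 722 of them on chromosome 15. The upstream segment had 3, or 1.52 per Mb, and the downstream mirror segment 25, or 12.6 per Mb. The peaks within 20 kb of Myc, 2 in number, belong to neither. From the outermost upstream peak to the far limit, 839.8 kb held none. Peak score and fold over control are the authors' own values and describe peaks within their list, whose medians were 41.0 and 12.3.

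A pair of peaks lay in the 100 to 800 kb stretch, whose limits were chosen after the bins were seen. Their bin, 500 to 600 kb, had 100 wild-type and 115 Ebf1-KO contacts and a ratio of shares of 0.576 (0.437 to 0.761). Within the stretch only the bin at 100 to 200 kb had a higher ratio, 0.625. The lowest ratios, 0.334 at 600 to 700 kb and 0.357 at 400 to 500 kb, belonged to bins without an EBF1 peak. The peak at chr15:61441798-61442118, 543.4 kb from Myc, had score 61.0 and fold 24.72, and the peak at chr15:61440307-61440627, 544.9 kb from Myc, had score 29.0 and fold 8.65. They lie 1.49 kb apart between genes, the nearest RefSeq gene being Gm24696, a small nucleolar RNA gene 84.0 and 82.5 kb away. Within 5 kb of the stronger peak wild type had 17 contacts and Ebf1-KO 8. In wild type this was 1.89 times the density of the flanks (1.05 to 3.21) and in Ebf1-KO 0.727 times (0.306 to 1.49). The wild-type value was 2.13 (0.894 to 4.39) with 2 kb each side and 1.09 (0.639 to 1.79) with 10 kb. With flanks to 25 and 100 kb it was 2.96 (1.48 to 5.78) and 1.90 (1.08 to 3.13). These settings gave 0.505 to 1.43 in Ebf1-KO. The share of the contacts on both sides had a ratio of 0.236 (0.0881 to 0.577). Against the flanks, whose share was lower too, the ratio was 0.387 (0.137 to 1.00), and with other windows and flanks it ran from 0.438 to 0.670 with intervals that included 1. The window of the weaker peak overlaps this one and had 16 and 8 contacts. At this depth a loss at the pair beyond that of its surroundings was not resolved.

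The other peak lay at the start of Lratd2. It spans chr15:60825011-60825331, 1160 kb from Myc and 91 bases from the Fam84b start in the count table, with score 57.0 and fold 13.15. It overlaps Lratd2 and the long non-coding RNA gene 9930014A18Rik, which are annotated on opposite strands. Within 5 kb wild type had 12 contacts, 4.50 times the flanks (2.05 to 9.36), and Ebf1-KO had 22, 3.47 times the flanks (2.02 to 5.77). This distant promoter stood above its flanks in both genotypes. Since PLAC-seq enriches for fragments with H3K4me3, more contact and more of this mark cannot be told apart here. The ratio of shares was 0.919 (0.435 to 2.04), and the ratio against the flanks 0.774 (0.307 to 2.00). The windows of all 3 peaks cover 1.09% of the segment. They held 30 contacts in each genotype, which gives a ratio of shares of 0.501 (0.292 to 0.861), beside 0.667 (0.614 to 0.724) for the rest of the segment and these intervals overlap. The interval of the peak windows included 1 with windows of 2 kb (0.554, 0.283 to 1.09), per contact with other chromosomes (0.622, 0.362 to 1.07) and as a share of upstream contacts only (0.757, 0.441 to 1.30).

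**Figure D4:**
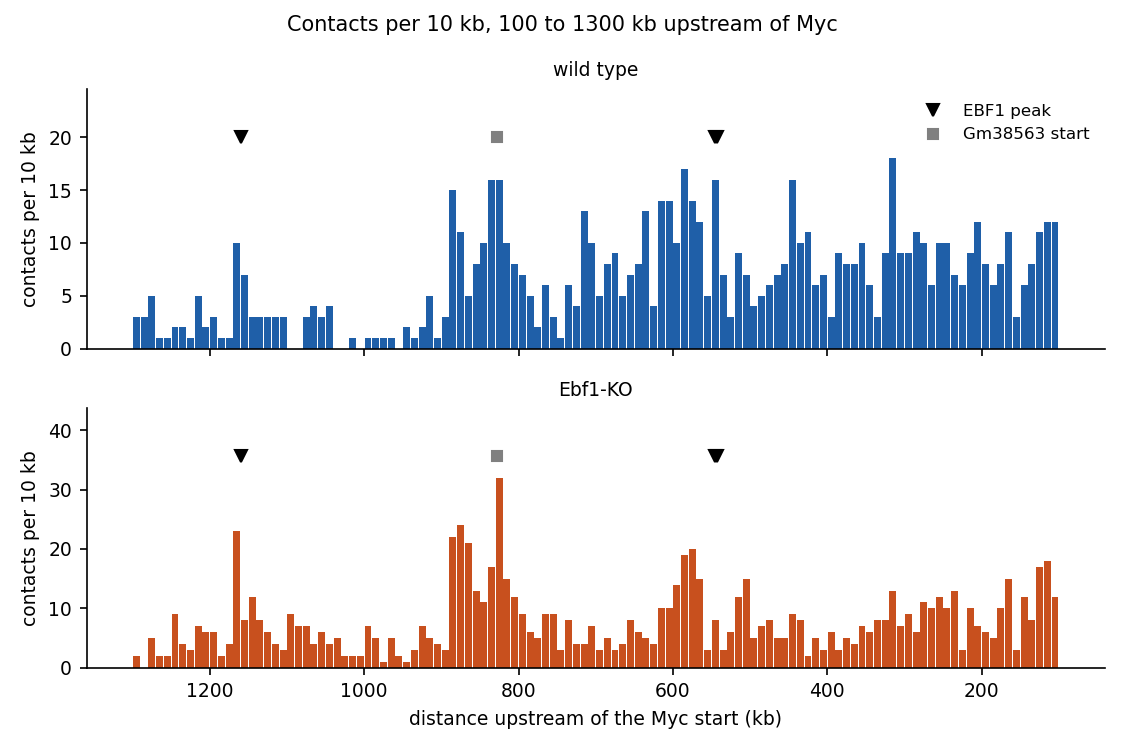
Contacts per 10 kb from 100 to 1300 kb upstream of the Myc start (kb), wild type above and Ebf1-KO below on axes of their own, since depths differ. Triangles mark the 3 EBF1 peaks, a pair of them overlapping near 544.9 kb, and squares the Gm38563 start; contacts drop beyond 900 kb in both profiles and rise again at the outer peak.

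RNA levels were available for 5 genes that start in the segment. D030024E09Rik and 4933412E24Rik had 0 counts in all 14 libraries, and A1bg, which encodes a plasma glycoprotein, had at most 9. Wild-type cells gave 0 A1bg counts in both libraries and Ebf1-KO cells 9 and 4. The ratio was 3.14 when the wild-type group is set at 3 counts in all, with no allowance for error in the Ebf1-KO counts. That left Fam84b, which encodes an LRAT-domain protein, and 9930014A18Rik to be tested in the fit over 14550 genes. The setting for strand is not given in the sources used here, so the counts of these overlapping genes may share reads.

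Fam84b was highest in Ebf1-KO cells with empty vector. Wild-type libraries had 45.2 and 80.1 CPM, and Ebf1-KO libraries with empty vector 137 and 140. Fam84b rose by 1.15 ± 0.35 (log2 fold change ± SE, adjusted p = 0.0378, edgeR quasi-likelihood test), or 2.21-fold. The call was lost without replicate 1 or 2 of Ebf1-KO (adjusted p = 0.117 and 0.154) and on leaving out replicate 1 of wild type (0.261). 9930014A18Rik stood at 4.25 and 2.12 CPM in wild-type libraries against 14.7 and 14.5 CPM in Ebf1-KO. The difference of 2.20 ± 0.73 missed the threshold in edgeR (adjusted p = 0.0582). It passed in DESeq2 (adjusted p = 0.00964) and with the replicate number as a block in edgeR (adjusted p = 0.0461). With 1 library left out it ran from 1.79 to 2.79. So 1 of the 2 tested genes was called higher and 0 lower in edgeR, where 8.02% of all genes were called higher and 6.65% lower. Per kb of transcript, Fam84b averaged 11.3 CPM with Ebf1 intact and 24.9 CPM in Ebf1-KO, and Myc, with the same scaling, stood at 125 and 104 in wild type against 59.9 and 78.0 in the mutant.

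Myc itself had 299 and 248 CPM with Ebf1 intact and 143 and 187 without it, a difference of -0.73 ± 0.25 (adjusted p = 0.0681, edgeR). It was called lower in DESeq2 (adjusted p = 0.0296) and with the replicate block in edgeR (adjusted p = 0.00996), a pairing not taken for the comparison with wild type. With 1 library left out the Myc difference ran from -0.96 to -0.53. Farther upstream, Trib1, a pseudokinase that promotes breakdown of the myeloid factor C/EBP alpha, starts 2337 kb from Myc. Its level was 1.40 and 0.0572 CPM in wild-type libraries against 2.93 and 9.12 CPM in Ebf1-KO, and it rose by 3.03 ± 0.94 (log2 scale, adjusted p = 0.0426, edgeR). Single libraries set the size, which was 6.61 without wild-type replicate 1 and 1.96 without Ebf1-KO replicate 2. This call was lost when replicate 2 of either group was left out (adjusted p = 0.346 for the Ebf1-KO library and 0.196 for the wild-type library) and in an edgeR fit of the compared groups alone (0.0871). Nsmce2, a SUMO ligase of the SMC5/6 complex, and Sqle, an enzyme of cholesterol synthesis, lie beyond Trib1 and were not called (0.18 ± 0.29 and -0.44 ± 0.24). Pvt1, the non-coding RNA gene on the downstream side, had 23.5 and 40.6 CPM in wild-type libraries against 19.3 and 8.05 CPM in Ebf1-KO, a difference of -1.23 ± 0.50 (adjusted p = 0.127, edgeR).

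In Ebf1-KO cells Fam84b values were lower with either factor's vector than with the empty one, and the difference was called for Pax5. With the Ebf1 vector the CPM was 74.2 and 91.6, against 137 and 140 with empty vector. The difference was -0.74 ± 0.34 (unadjusted p = 0.0483, adjusted p = 0.442, edgeR) and was not called. With the Pax5 vector the CPM was 34.6 and 53.3, and Fam84b fell by 1.66 on the log2 scale with an SE of 0.35 (adjusted p = 0.0149, edgeR). The difference between the vectors was not tested, and both comparisons share the empty-vector libraries. Without Pax5-vector replicate 1 the adjusted p was 0.131, and without Ebf1-KO replicate 1 or 2 it was 0.0848 or 0.0769. 9930014A18Rik had 6.31 and 11.0 CPM with the Ebf1 vector and 3.53 and 11.1 with the Pax5 vector, and was called in neither comparison. With the Ebf1 vector 0 of the 2 tested genes were called in edgeR, where 0.763% of all genes were called lower and 2.21% higher, and 0 were called in DESeq2. At an unadjusted p below 0.05 in edgeR 1 of the 2 was lower, as were 4.74% of all genes. With the Pax5 vector 1 of 2 was called lower, where 0.935% of all genes were.

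Myc did not follow Fam84b with both vectors. It was 308 and 418 CPM with the Ebf1 vector, a rise of 1.14 ± 0.25 (adjusted p = 0.0214, edgeR), and 66.8 and 84.3 CPM with the Pax5 vector, a fall of -1.13 ± 0.25 (adjusted p = 0.0209, edgeR). The Ebf1-vector call was lost without Ebf1-vector replicate 2 (0.302) or either empty-vector library of these cells (0.307 and 0.0514). The Pax5-vector call was lost without Pax5-vector replicate 1 (0.161) or 2 (0.0502) or empty-vector replicate 2 (0.182). In Pax5-KO cells Fam84b averaged 48.3 ± 17.0 CPM with empty vector (SD, n = 2), 45.5 ± 16.7 with Ebf1 and 33.4 ± 2.88 with Pax5, all below the Ebf1-KO level with empty vector. Across the 7 groups only Ebf1-KO with empty vector had both libraries above 100 CPM.

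**Figure D5:**
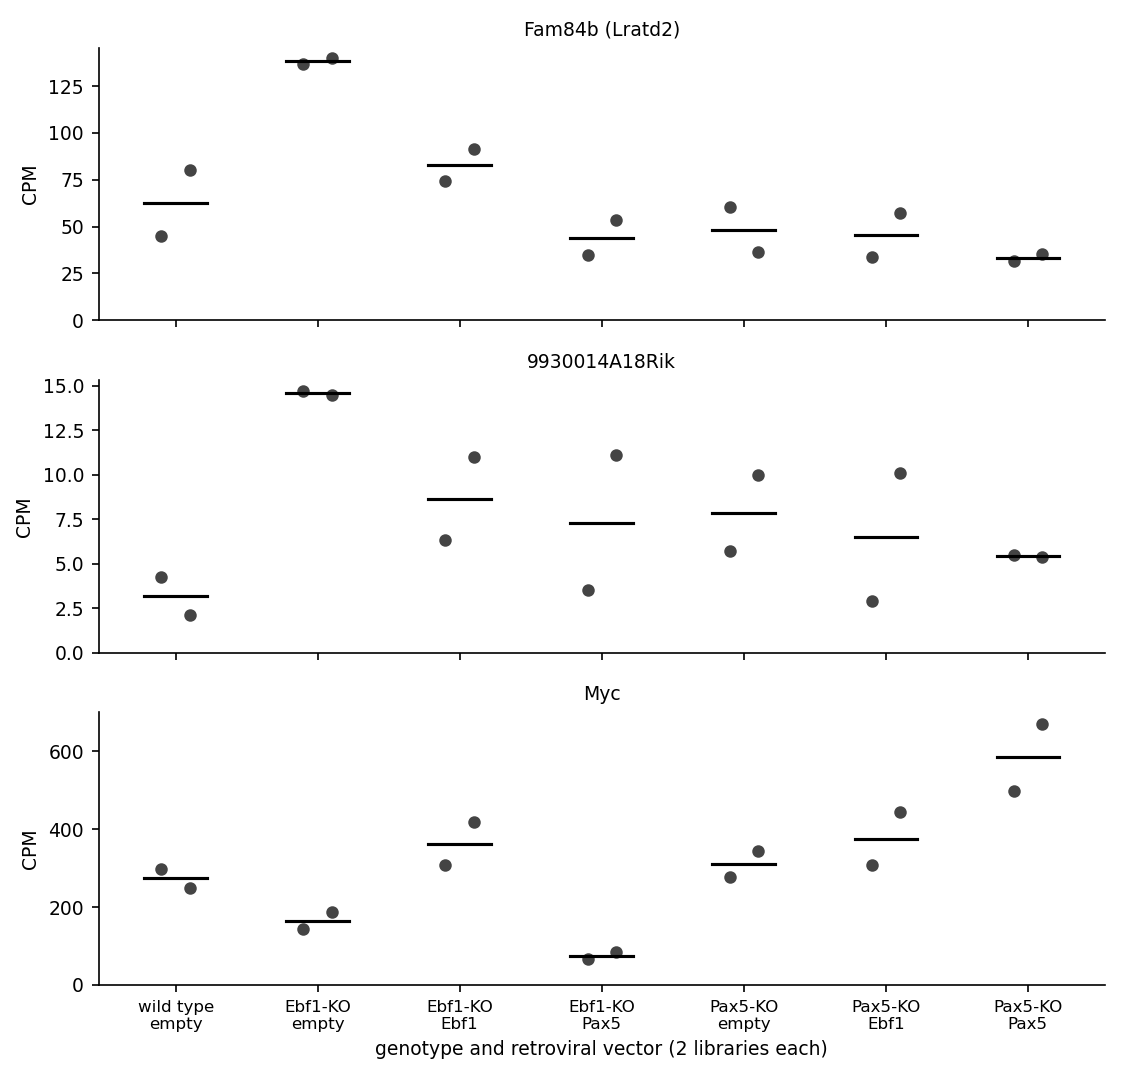
CPM of Fam84b (Lratd2), 9930014A18Rik and Myc in each of the 14 RNA libraries by genotype and vector, with points for libraries and lines for group means. Fam84b and 9930014A18Rik are highest in Ebf1-KO with empty vector, at 137 and 140 and at 14.7 and 14.5 CPM.

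Markers of some other cell types differed between these groups. The summed CPM of 8 myeloid markers was 58.7 to 65.6 in wild type, with Cebpa at 0, and 738 to 765 in Ebf1-KO with empty vector, 386 to 396 with the Ebf1 vector and 748 to 771 with the Pax5 vector. For 8 NK and T markers the sums were 8.98 to 9.58, with Cd3e at 0, then 303 to 391, 177 to 202, again with Cd3e at 0, and 467 to 474. For 6 markers of stroma of the OP9 type they were 0.572 to 2.12, 62.7 to 71.7, 21.5 to 22.3 and 75.3 to 86.7. Col3a1 and Postn were at 0 in each of these 4 groups. With the Ebf1 vector Col1a1 and Col1a2 were at 0 too, which left Sparc and Pdgfrb. For 6 erythroid and megakaryocyte markers no library of these groups exceeded 3.82. The part of these cells in the RNA differences was not tested. In bulk RNA, fewer cells of a type and less RNA per cell cannot be told apart. The contact profiles have no such markers, and whether their cultures held the same mixture was not tested.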

How the data were processed

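Contact profiles, EBF1 peaks and RNA counts were taken as deposited. Contacts are a whole-number count per restriction fragment, pooled by the authors over the samples of a genotype, and fragments without contacts are not listed. The authors' peak list, made with HOMER and IDR per the file headers and labels, gives a normalized tag signal, a score and a fold ratio over control. RNA values are raw exon counts per gene, deposited without normalization. The submitters' processing notes name HOMER 4.8, HiC-Pro 2.11.1 and mm10, among others; the enzyme, the strand setting and the contact filters are not given in the sources used here.

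Contact shares used the contacts from 20 kb to 2 Mb on both sides of Myc. Counts were tested with edgeR 4.0.16 in R 4.3.3 (TMM scaling, filterByExpr, 1 model over 7 groups, quasi-likelihood test, Benjamini-Hochberg adjustment over 14550 genes, threshold 0.05), with DESeq2 1.42.0 as an alternative. The procedure was tried on counts simulated for Ebf1-KO against wild type over 13924 genes. Every gene was given the same assumed spread, not the spread measured in these libraries. There, 62 of 100 genes changed by 2 on the log2 scale and 8 of 100 changed by 1 were called. These numbers do not give the power of this experiment. RNA depth was 16.1 to 42.1 M exon counts per library. Nothing in the labels tells whether replicates are separate animals or cultures, so a p-value reflects the spread of these libraries alone, which may be technical. An unnumbered Pax5-KO column with empty vector was used as replicate 1. Named were Myc, the genes starting in the segment, 4 neighbours, bins past 1.5-fold, the top 10 fragments per profile and all upstream peaks. Members and lists were chosen with earlier results of these data known. The Pax5-vector comparison, other denominators and the windows around sites were added after seeing the data.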

Additional observations from a re-analysis of the deposited data

How the results depend on the processing

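The upstream ratio of 0.662 was below 1 under all settings tried, but became 0.549 with an outer limit of 1 Mb, 0.957 for listed fragments, 0.821 per contact with other chromosomes and 0.843 per contact of chromosome 15 beyond 2 Mb. Bins lower by over 1.5-fold, 45.0% upstream, became 15.0% with a 2-fold limit or as shares of upstream contacts only, and 20.0% per contact with other chromosomes. Bins higher, 5.00%, became 15.0% in bins of 50 kb, 0% in bins of 200 kb or with a 2-fold limit, 30.0% as shares of upstream contacts only or without fragments of 1 contact, and 20.0% per contact with other chromosomes. The ratio at EBF1 peaks was below 1 in all settings, from 0.501 to 0.757, and the number of peaks was 2 with a score of at least the median or an outer limit of 1 Mb. Profiles are pooled, so no replicate could be left out of them.

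Genes of the segment called higher in Ebf1-KO went from 1 to 2 with DESeq2, without the filter on low counts, in the fit of the compared groups only and with the replicate block, and ran from 0 to 1 when leaving out a library. With the Ebf1 vector the number lower went from 0 to 1 (Fam84b, adjusted p = 0.0405) in the edgeR fit of the compared groups only, and with the Pax5 vector from 1 to a range of 0 to 1 when leaving out a library. A lone library was assumed to vary like the other groups. Called genes in all ran from 683 to 1647 higher and 511 to 1332 lower in Ebf1-KO (1167 and 967 as reported), 153 to 527 higher and 24 to 428 lower with the Ebf1 vector (321 and 111), and 28 to 397 lower with the Pax5 vector (136).

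Replicate numbers are shared between groups, and a tag in the column names, whose meaning is not given, parts the libraries the same way. The correlations of replicate deviations were 0.124 to 0.387 for the 15 pairs of mutant groups but -0.112 to -0.0297 for those with wild type, so the numbers were not taken as pairs for the comparison with wild type. With the replicate block, 9930014A18Rik (2.12, adjusted p = 0.0461, edgeR) and Myc (-0.76, adjusted p = 0.00996) were called in Ebf1-KO, and no call on a named gene changed with either vector. Reversed signs were seen only for genes outside the segment that were not called. On leaving out a library, Nsmce2 in Ebf1-KO ran from -0.04 to 0.45, Pvt1 with the Ebf1 vector from -0.70 to 0.52, Sqle with the Ebf1 vector from -0.35 to 0.07 and Sqle with the Pax5 vector from -0.23 to 0.25. Sqle with the Pax5 vector was -0.0047 in the compared groups only.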
